A study of Mus musculus with 12 samples.

Results

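Bone marrow cells of mice that lack Yy1 and are heterozygous for Smc3 were compared with wild-type cells by RNA sequencing. The comparison takes the 4 libraries labelled Yy1-/- Smc3+/- and the 4 libraries labelled Yy1+/+, the wild-type control, which are 8 of the 12 libraries of the series. The other 4 libraries, labelled Yy1-/- with no mark on Smc3, share the estimate of the spread and are set beside the comparison at the end. Every library came from LSK cells, the marrow cells that were sorted as negative for lineage markers and positive for Sca1 and c-Kit. The labels name no Cre driver, promoter, strain, age, sex or way in which Yy1 was removed, and they tie no library to an animal, so the p-values measure the spread between these samples, which may be technical in part. Cells with Smc3+/- and intact Yy1 were not analysed here, so in the contrast with wild type the loss of Yy1 and the loss of an Smc3 allele cannot be told apart. In the values below, wild type stands for Yy1+/+ and mutant for Yy1-/- Smc3+/-, and libraries are numbered 1 to 4 within a genotype.

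LSK cells hold the haematopoietic stem cells and the multipotent progenitors that still share their surface markers. YY1 is a zinc finger protein that binds a short motif near the start sites of many genes, can activate or repress them, takes part in Polycomb and INO80 complexes, and helps to bring enhancers and promoters together. SMC3 is a core subunit of the cohesin ring, which holds sister chromatids together until mitosis and extrudes chromatin loops during interphase. Stem cells in marrow are mostly quiescent, while multipotent and committed progenitors divide more often, and a bulk profile of LSK cells reads the mixture of them.

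Yy1 mRNA was low in all 4 mutant libraries. Yy1 (ENSMUSG00000021264.12, chromosome 12:108792973-108820148, GRCm38) was measured at 0.772, 0.795, 4.45 and 0.944 CPM in mutant libraries 1 to 4 and at 33.9, 41.3, 34.2 and 34.0 CPM in wild-type libraries 1 to 4, where CPM is the read count that edgeR gives relative to the scaled size of the library. The groups did not overlap, and mutant library 3 kept more reads of the gene than the other 3. The fall was 4.4 ± 0.76 on the log2 scale (standard error; edgeR quasi-likelihood test, Benjamini-Hochberg adjusted p = 0.000948), and the log2 fold change was -5.42 without mutant library 3. Smc3 (ENSMUSG00000024974.10, chromosome 19:53600398-53645833) stood at 254, 344, 314 and 291 CPM in the mutant libraries and at 163, 160, 214 and 172 CPM in the wild-type libraries. Every mutant library was above every wild-type library, so the Smc3 mRNA of the libraries labelled Smc3+/- was higher than wild type, by 0.76 ± 0.15 (edgeR adjusted p = 0.00254). A summed gene count does not show which allele the reads came from, and the labels do not say which part of Smc3 is altered, so this level checks the label neither way.

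The sort markers were checked in the same way. Kit, which encodes c-Kit, the receptor for stem cell factor, was at 229, 373, 180 and 198 CPM in the mutant libraries and at 809, 422, 981 and 864 CPM in the wild-type libraries. Its RNA was present in every library and lower in the mutants by 1.65 ± 0.33 in log2 (edgeR adjusted p = 0.00246), with no overlap. Ly6a, which encodes Sca1 and was picked here after its values were seen, was at 236, 197, 150 and 335 CPM in the mutants and at 196, 173, 151 and 226 CPM in wild type, ranges that overlap (log2 difference 0.30 ± 0.26, edgeR adjusted p = 0.414). In such bulk samples fewer cells of a type and less RNA per cell cannot be told apart.

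The libraries held between 38671354 and 69086104 summed expected counts, the highest in wild-type library 2, and 18557 to 19916 genes had a count in each. A principal component analysis of the 8 libraries put 48.4% of the variance on its leading axis, where the mutants lay between -100.25 and -76.74 and the wild-type libraries between 79.93 and 97.2. On the next axis, with 13% of the variance, mutant library 3 lay at -88.76 and the others between -19 and 63.11. Some libraries recur in the results below: mutant library 3 with its residual Yy1 and its high granule and erythroid genes, mutant library 2 with high macrophage genes, and wild-type library 2 with high immediate early, heat shock and eosinophil genes. None of the 5 sex-linked genes listed, Xist and 4 on the Y chromosome, passed the edgeR test between the genotypes, and with the Y-linked level of each library as a covariate 3643 genes changed, 1535 of them higher.

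Of 16649 genes tested, 4975 changed between the mutant and the wild-type libraries (29.9%). In the mutants 2189 were higher (13.1%) and 2786 lower (16.7%), so 44.0% of the changed genes were higher. The direction depends in part on the scale: on log2(TPM + 1) of the deposited TPM, where the median over all genes was -0.11 against 0.02 with counts, 1299 were higher and 3480 lower, or 27.2% higher, and on log2(TPM + 0.1), with a median of -0.15, 28.7% were higher. At least 2-fold changes made up 2900 of the genes (17.4%), and changes of at least 4-fold were found for 483 genes that rose and 1013 that fell. In 4343 of the changed genes the 4 mutant and the 4 wild-type libraries did not overlap, where 32.2% of all genes tested had no overlap. Of genes with a mean under 1 CPM over the 8 libraries 9.38% were higher and 8.98% lower, and of those above 100 CPM 21.9% and 12.8%.

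**Figure D1:**
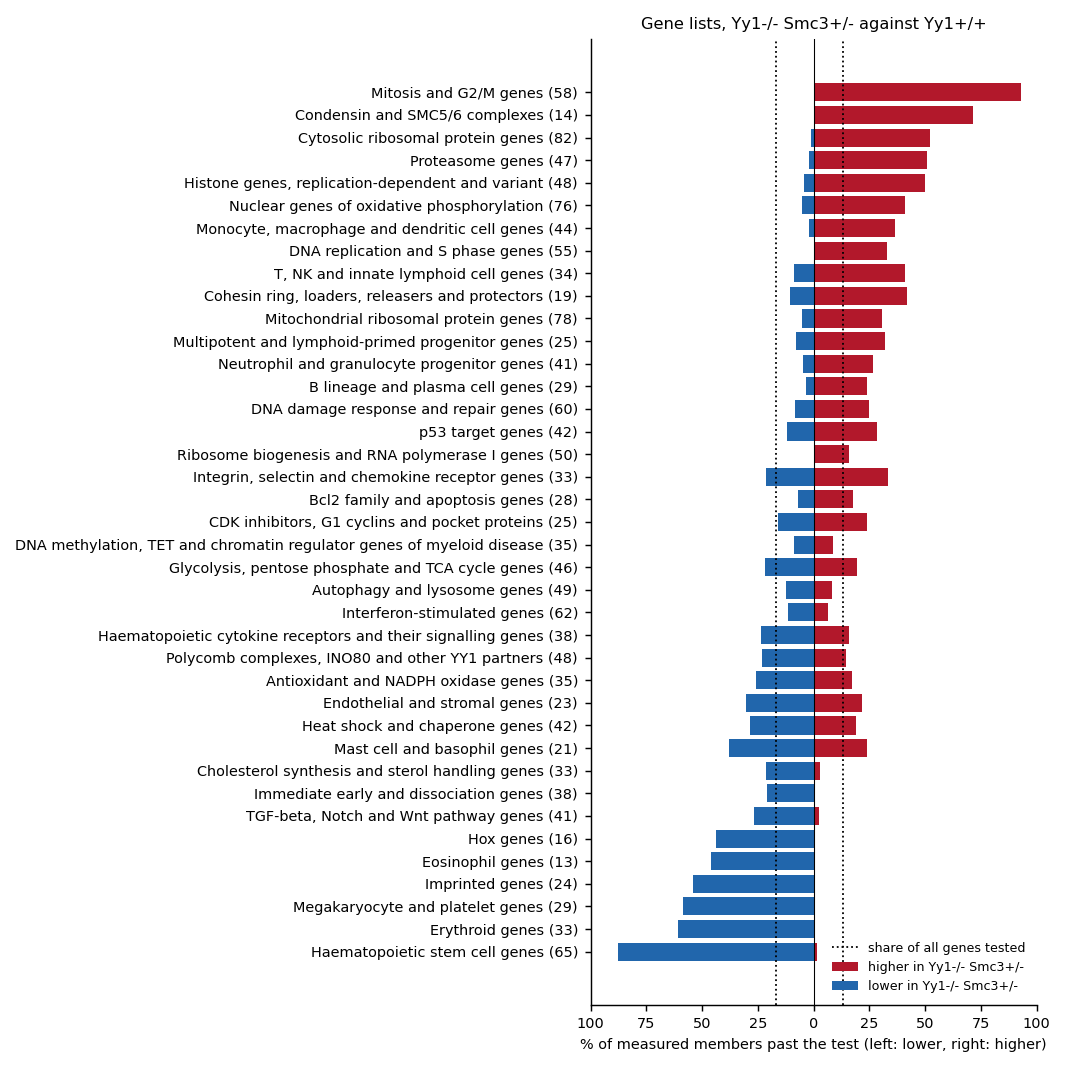
Share of the measured members of each gene list that passed the edgeR test in the mutant against the wild-type libraries (x axis, percent of the measured members), to the right for higher and to the left for lower, with the number of measured members in brackets. The dotted lines mark 16.7% lower and 13.1% higher over all genes tested, and the mitosis list (54 of 58 higher) and the stem cell list (57 of 65 lower) lie at the ends.

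The largest falls were of genes that the mutant libraries hardly held. Foxa3, a forkhead transcription factor best known from liver and gut, had 0 counts in every mutant library and 5.05, 6.98, 6.4 and 6.27 CPM in wild type, at least 344-fold lower when 3 counts over the 4 mutant libraries are taken as the limit of detection. Scml2, a Polycomb-associated gene on the X chromosome, had 0 counts in the mutants and 6.91, 5.5, 8.31 and 10.4 CPM in wild type, at least 433-fold lower. Zfp618, a zinc finger gene, had 0 counts against 4.41, 9.76, 9.93 and 8.23 CPM, at least 450-fold lower. The largest changes were picked among genes without overlap between the genotypes, so the separation of the groups in these genes follows from the choice. Slc6a15, a transporter of neutral amino acids, was at 0.221, 0, 0.259 and 0.124 CPM in the mutants and at 12.7, 14.1, 14.5 and 14 CPM in wild type, a fall of 6.5 ± 0.46 (edgeR adjusted p = 1.94e-08). Slc27a6, a fatty acid transport gene, was lower by a count ratio of 562, with a 95% counting interval of 192 to 2730.

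The largest rises brought genes from near 0 to a moderate level. Ednrb, the endothelin B receptor, was at 2.89, 11.9, 6.26 and 5.24 CPM in the mutants and had reads in wild-type library 1 alone, at 0.0188 CPM. Its count ratio was 1360, with a wide counting interval of 243 to 53600. Igfbp7, a secreted binding protein for insulin-like growth factors, was at 45.3, 41.1, 27.3 and 18.1 CPM against 0.451, 1.18, 1.08 and 1.06 CPM, a rise of 5.12 ± 0.39 (edgeR adjusted p = 3.83e-06). Plcd3, a phospholipase C, was at 45.7, 29.8, 24.2 and 28.2 CPM against 0.714, 0.9, 1.64 and 0.654 CPM, a rise of 5.04 ± 0.34. These rises were also picked among genes without overlap, so the separation of the genotypes follows from the choice. Igf2bp3, an RNA-binding protein known from fetal haematopoiesis, was at 8.14, 9.1, 6.41 and 20.6 CPM against 0.15, 0.584, 0.388 and 0.0225 CPM, a rise of 5.16 ± 0.67. Ceacam16 (5.37 ± 0.44), Fam71b (5.58 ± 0.49) and the cadherin gene Cdh17 (5.28 ± 0.75) rose on the same scale.

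Genes of haematopoietic stem cells were lower almost throughout. Of 65 measured members of the stem cell list 57 were lower and 1 was higher, and the median log2 fold change was -1.87, where all genes had 0.02. Leaving out any library in turn left between 51 and 54 that fell. Pdzk1ip1, a membrane gene used to mark stem cells, was at 3.59, 3.18, 2.3 and 1.71 CPM against 91.8, 116, 73.5 and 98.9 CPM, a fall of 5.13 ± 0.31 (edgeR adjusted p = 6.22e-07). The highest mutant value lay far below the lowest wild-type value. Procr, the surface protein EPCR, was at 17.5, 11.5, 10 and 7.08 CPM against 66.4, 69.9, 56.9 and 61.9 CPM, and Slamf1, the surface protein CD150, fell by 2.18 ± 0.30.

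Most transcription factors in the stem cell list were lower, as were most surface genes. Hlf was at 27.4, 36, 19.8 and 22.3 CPM in the mutants and at 233, 112, 229 and 224 CPM in wild type, a fall of 2.92 ± 0.35 (edgeR adjusted p = 8.66e-05). Mecom, which encodes EVI1, was at 16.5, 21.3, 9.73 and 11.8 CPM against 81.4, 66.4, 108 and 79.4 CPM, a fall of 2.5 ± 0.32. Mllt3, a gene that sustains stem cell identity in culture, fell by 3.02 ± 0.23, and Eya2 by 3.50 ± 0.28. None of these overlapped between the genotypes. Gata2, shared by stem cells, mast cells and megakaryocyte precursors, was at 118, 96.2, 83.3 and 51 CPM against 262, 369, 310 and 296 CPM, a fall of 1.83 ± 0.23. Angpt1, a ligand that stem cells and niche cells make, and Txnip, which restrains glucose uptake, fell by 2.31 ± 0.23 and 1.54 ± 0.25. Of the 7 members that did not pass, the factors included Runx1 (log2 difference 0.06 ± 0.16), Gfi1 (0.40 ± 0.16) and Erg (-0.41 ± 0.27). Runx1, Gfi1 and Erg were picked after their values were seen, and Gfi1 was called without wild-type library 1 (edgeR adjusted p = 0.0311). The surface genes that did not pass were Cd34, at 904 to 1000 CPM against 892 to 1040 CPM, Itga2b and Ly6a. The 1 other member that did not pass had a log2 difference of -1.07. The 1 member that rose was Thy1, at 0.662 to 1.97 CPM against 0.411 to 0.811 CPM, with an adjusted p of 0.0453 in edgeR that was above 0.05 without any of wild-type libraries 1 to 4 or of mutant libraries 2, 3 and 4.

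**Figure D2:**
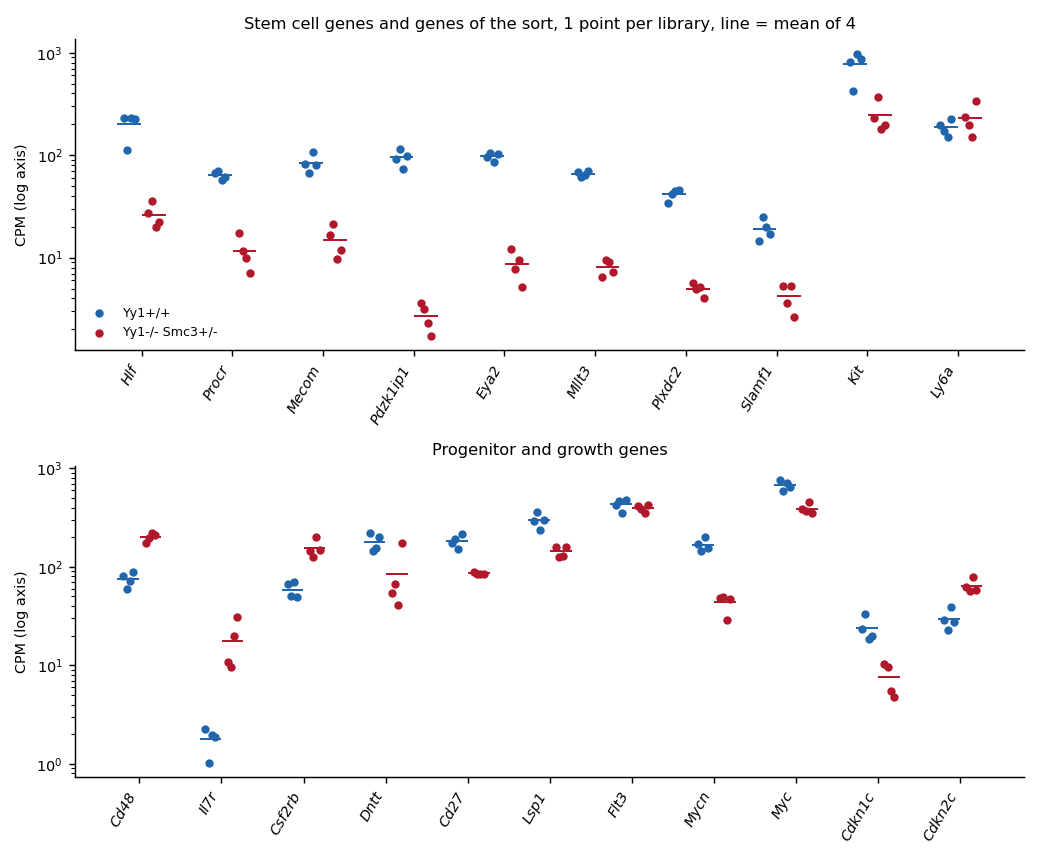
Level of stem cell genes (top) and of progenitor, cytokine receptor and cell cycle regulator genes (bottom) in each library, on a log axis in CPM, with 1 point per library, blue for wild type and red for the mutants, and a line at the mean. All 4 mutant libraries lie below all 4 wild-type libraries for Hlf, Mecom and Procr, while Cd48 and Il7r lie above and Flt3 overlaps.

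Genes of multipotent and lymphoid-primed progenitors did not share that direction. Of 25 measured members 8 were higher and 2 lower, at a median of 0.0, where 13.1% of all genes were higher and 16.7% lower. Cd48, a surface protein that stem cells lack and multipotent progenitors carry, was at 173, 198, 222 and 210 CPM in the mutants and at 80.2, 59.7, 71.2 and 88.7 CPM in wild type, a rise of 1.42 ± 0.17 (edgeR adjusted p = 7.97e-05). Il7r, the interleukin 7 receptor of lymphoid progenitors, was at 10.7, 9.68, 19.9 and 30.6 CPM against 2.27, 1.03, 1.98 and 1.85 CPM, a rise of 3.33 ± 0.49. In both genes every mutant library lay above every wild-type library. Flt3, the receptor that marks multipotent progenitors, was at 352 to 429 CPM in the mutants and at 355 to 482 CPM in wild type, and the log2 difference of -0.13 had a 95% interval of -0.50 to 0.24. The 2 members that fell were Cd27 (-1.1 ± 0.16), a costimulatory receptor, and Lsp1 (-1.05 ± 0.15), an actin-binding protein of white cells. Dntt, which adds bases at V(D)J joints in lymphoid progenitors, was at 54.1, 66.8, 40.6 and 174 CPM against 219, 146, 154 and 203 CPM. It did not pass with all libraries (edgeR adjusted p = 0.148) and fell by 1.74 without mutant library 4 (edgeR adjusted p = 0.0371), the highest of its group.

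Cytokine receptors and the genes of their signalling split, with 6 of 38 higher and 9 lower. Over all genes 13.1% were higher and 16.7% lower. The receptor chains for granulocyte-macrophage colony-stimulating factor rose: Csf2rb, the common beta chain, was at 145, 126, 199 and 148 CPM against 66.3, 50, 69.4 and 49.2 CPM (1.4 ± 0.20, edgeR adjusted p = 0.000255), and Csf2ra rose by 0.86 ± 0.25, a call that was lost without mutant library 3 (adjusted p = 0.0613), wild-type library 3 (0.0564) or wild-type library 4 (0.059). Csf3r, the receptor for granulocyte colony-stimulating factor, fell by 0.61 ± 0.17, a call lost without mutant library 4 (edgeR adjusted p = 0.0603). Cish, a feedback inhibitor that STAT5 induces, was at 15.1, 15.7, 16.2 and 14.9 CPM against 46.1, 39.6, 40.8 and 38.3 CPM, and fell by 1.41 ± 0.21. Of the TGF-beta, Notch and Wnt list 11 of 41 fell and 1, Id2, rose, or 29.3% changed against 29.9% of all genes. Without wild-type library 1 or mutant library 4, 2 rose, and without wild-type library 2, 3. Smad6 (-2.55 ± 0.37) and Smad7 (-1.35 ± 0.26), inhibitors of SMAD signalling, were among those that fell, as was the receptor gene Tgfbr1, at 13 to 13.9 CPM in all mutants against 14.7 to 46.2 CPM in wild type.

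Among integrins, selectins and chemokine receptors 11 of 33 rose and 7 fell, where 13.1% of all genes were higher and 16.7% lower. The junctional adhesion genes Jam2 and Jam3 were nearly absent in the mutants. Jam3 was at 0.0441, 0.421, 0.233 and 0.447 CPM against 14.9, 24.6, 13 and 14.9 CPM, a fall of 5.89 ± 0.55 (edgeR adjusted p = 7.85e-06), and Jam2 was at 0.0702 to 0.621 CPM against 5.07 to 7.7 CPM. Esam, an adhesion molecule of endothelial and stem cells, was at 30.2, 23.3, 16.6 and 11.9 CPM against 65.6, 101, 89.3 and 83.7 CPM. The 4 mutant libraries were below the 4 wild-type libraries for all 3 genes.

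Mitotic genes were higher almost throughout. Of 58 measured members 54 rose and none fell in the edgeR test, at a median of 1.06, and between 47 and 55 rose when any library was left out. Plk1, the kinase that drives mitotic entry and spindle assembly, was at 271, 225, 286 and 220 CPM in the mutants and at 81.3, 89.6, 118 and 83.6 CPM in wild type (1.43 ± 0.18, edgeR adjusted p = 0.00011). Cdk1 was at 270, 260, 324 and 269 CPM against 111, 127, 150 and 123 CPM, and Ccnb1, its cyclin partner, at 280, 296, 364 and 294 CPM against 128, 135, 170 and 149 CPM. Each mutant library was above each wild-type library in these genes. Cdc25c (1.66 ± 0.17), Ube2c (1.37 ± 0.16) and the centromere histone gene Cenpa (1.09 ± 0.12) rose as well.

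The genes of DNA replication moved less. Of 55 measured members 18 rose and none fell, at a median of 0.30, where 13.1% of all genes were higher and 16.7% lower. The count was 10 without wild-type library 1 and 11 without mutant library 2, and on log2(TPM + 1) 9 rose and 3 fell. Rrm1, a subunit of ribonucleotide reductase, was at 679, 693, 622 and 576 CPM against 318, 383, 473 and 394 CPM (0.71 ± 0.13, edgeR adjusted p = 0.00152). Tipin, which protects replication forks, rose by 0.95 ± 0.17. The helicase subunit genes differed among themselves: Mcm4 was higher by 0.50 ± 0.14 (edgeR adjusted p = 0.0164, and above 0.05 without wild-type library 1 or mutant library 2), and Mcm2 stood at 268 to 375 CPM against 369 to 519 CPM (log2 difference -0.42 ± 0.18, adjusted p = 0.103).

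Subunits and partners of the SMC complexes were read as 2 lists. Of 19 cohesin genes 8 were higher and 2 lower, at a median of 0.31, where 13.1% of all genes were higher and 16.7% lower. Rad21, the kleisin subunit that closes the ring, was at 121, 147, 121 and 130 CPM against 59.6, 60, 85.2 and 81.9 CPM (0.86 ± 0.15, edgeR adjusted p = 0.000886), and rose together with Smc3. Sgo1, the shugoshin that protects centromeric cohesion, was at 105, 114, 112 and 109 CPM against 27.9, 35.1, 46.2 and 35.1 CPM (1.61 ± 0.15). Cdca5, which encodes sororin, and Stag3, a subunit known from meiosis, rose by 0.88 ± 0.15 and 1.76 ± 0.25. Smc1b, the meiotic counterpart of Smc1a, picked here after its values were seen, was at 2.38, 5.12, 3.44 and 1.86 CPM against 0.0376, 0.568, 0.258 and 0.338 CPM, a rise of 3.35 ± 0.72 (edgeR adjusted p = 0.0037) with no overlap. Other ring subunits overlapped between the groups: Smc1a was at 249 to 335 CPM against 278 to 377 CPM (log2 difference -0.14 ± 0.15), and Stag2 at 92.9 to 143 CPM against 74.4 to 156 CPM (0.06 ± 0.21). The 2 members that fell were Rec8, the meiotic kleisin, at 1.96 to 5.14 CPM against 15.2 to 21.7 CPM (-2.40 ± 0.28), and Esco1, an acetyltransferase of SMC3 (-0.44 ± 0.14), whose call was lost without wild-type library 1 (edgeR adjusted p = 0.0757), wild-type library 3 (0.0621) or mutant library 1 (0.0705).

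Of 14 condensin and SMC5/6 genes 10 rose and none fell, with a median of 0.58. The count was 7 without 1 of several libraries and 5 without both mutant library 3 and wild-type library 2, and 3 on either TPM scale. Ncaph, a subunit of condensin I, was at 196, 228, 200 and 180 CPM against 69.1, 75.1, 104 and 81.1 CPM (1.29 ± 0.15, edgeR adjusted p = 5.53e-05), and Ncapg rose by 1.23 ± 0.20. Nsmce1, a ubiquitin ligase subunit of SMC5/6, was at 208, 187, 145 and 210 CPM against 77.9, 108, 78.1 and 97.1 CPM. Smc2 and Smc4, the core of condensin, passed the test with overlapping libraries, at 0.82 ± 0.22 and 0.66 ± 0.16. Their adjusted p-values were 0.0949 and 0.0924 on log2(TPM + 1) with limma, and edgeR gave 0.0733 and 0.069 without mutant library 3 and wild-type library 2.

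Histone genes rose with a median of 1.02, as 24 of 48 measured members were higher and 2 lower. H2afz, the variant found at promoters, was at 2920, 2450, 2350 and 2510 CPM against 1020, 1680, 1140 and 1160 CPM (1.03 ± 0.17, edgeR adjusted p = 0.000754), and H2afx, the variant that is phosphorylated at DNA breaks, rose by 0.76 ± 0.15. The replication-dependent Hist1h2bj was at 7.23, 5.36, 8.54 and 6.41 CPM against 1.41, 1.28, 1.83 and 1.67 CPM. All mutant libraries lay above all wild-type libraries in the 3 genes. The 2 lower members were H3f3a, a replication-independent histone H3.3 gene (-0.50 ± 0.12), and the linker histone gene Hist1h1c, which overlapped between the groups and was lost without most single libraries, as at -0.62 without wild-type library 2 (edgeR adjusted p = 0.169). Most replication-dependent histone transcripts carry no poly(A) tail, so a library made from poly(A) priming reads them in part.

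The regulators of the cell cycle did not share a direction, with 6 of 25 higher and 4 lower, where 13.1% of all genes were higher and 16.7% lower. The CDK inhibitor gene Cdkn1c, which encodes p57 and holds stem cells in quiescence, was at 10.3, 9.71, 5.43 and 4.74 CPM against 23.6, 33.3, 18.6 and 19.8 CPM, a fall of 1.65 ± 0.31 (edgeR adjusted p = 0.00153). Cdkn2c, which encodes p18, was at 63.1, 56.4, 78.2 and 58.2 CPM against 29, 23, 39.2 and 27.6 CPM, a rise of 1.11 ± 0.19. The groups were apart for both, in opposite directions. Cdkn2a had 0 counts in every wild-type library and 21 counts in the 4 mutant libraries together, at least 8.73-fold higher, with an adjusted p in edgeR of 0.0154 that rose to 0.0535 without mutant library 1 and 0.0522 without mutant library 3. Mycn was at 48.4, 49.8, 28.7 and 47.2 CPM against 170, 146, 200 and 157 CPM, and Myc at 386, 368, 456 and 352 CPM against 765, 593, 708 and 654 CPM. Both fell, by 1.95 ± 0.33 and 0.80 ± 0.17, and so did Mxd4, an antagonist of MYC (-1.23 ± 0.17). The count of rises in this list was 2 without mutant library 3 and 3 without wild-type library 1, wild-type library 4 or mutant library 2.

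**Figure D3:**
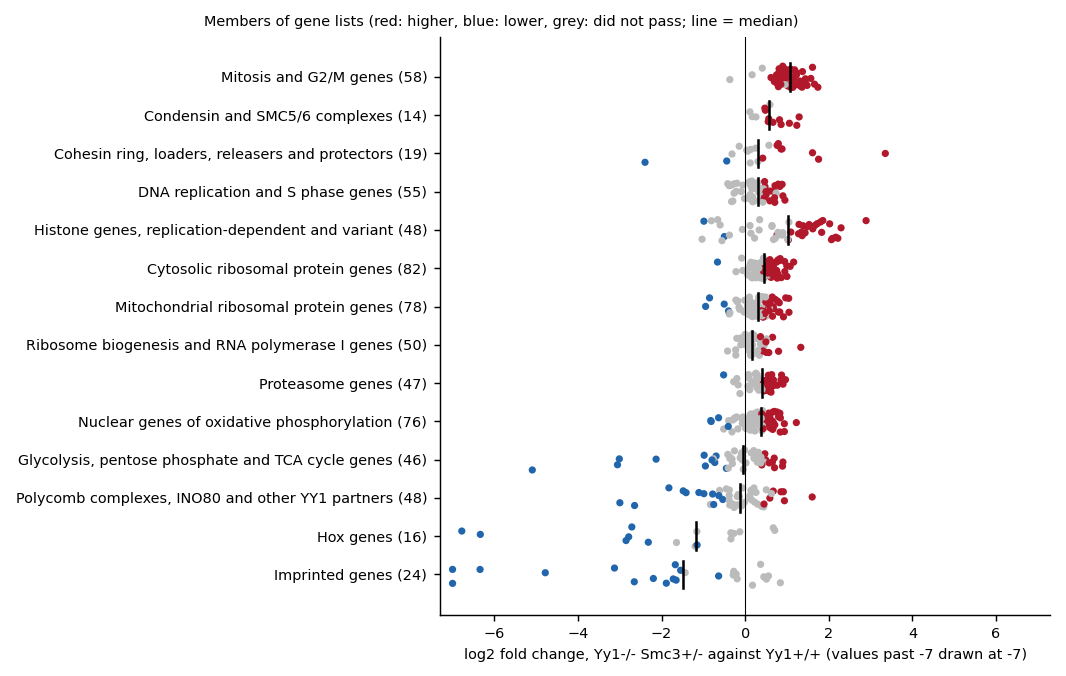
Log2 fold change of every measured member of 14 gene lists in the mutant against the wild-type libraries, with 1 point per gene, red where it was higher, blue where it was lower and grey where it did not pass the edgeR test, and a line at the median. Mitosis genes centre on 1.06 and imprinted genes on -1.49, and the ribosomal and respiratory lists lie in a narrow band just above 0.

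Genes of protein synthesis and turnover were shifted upwards by small amounts. Of 82 cytosolic ribosomal protein genes 43 were higher and 1 lower, at a median of 0.44. The count was 26 or 27 without mutant library 1, 3 or 4 or wild-type library 3, 16 without both mutant library 3 and wild-type library 2, and 13 on either TPM scale. Fau was at 360, 286, 314 and 305 CPM against 164, 139, 137 and 160 CPM (1.07 ± 0.16, edgeR adjusted p = 0.000297), and Rpl35a at 297, 249, 253 and 288 CPM against 145, 120, 128 and 151 CPM. Both were apart, while Rplp0, a stalk protein of the large subunit, overlapped at 1300 to 1670 CPM against 1300 to 1610 CPM (log2 difference 0.07 ± 0.15, and -0.12 on the TPM scales). The 1 member that fell was Rps27 (-0.66 ± 0.20), a call lost without wild-type library 1 (edgeR adjusted p = 0.0687) or 4 (0.0785), or mutant library 2 (0.0509) or 4 (0.0565). Of 50 genes of ribosome biogenesis 8 rose and none fell, a share of higher genes near that of all genes, with a median of 0.16 that was -0.02 on the TPM scales. It was 4 without mutant library 2 and 5 without wild-type library 1 or 4. Utp20, a processing factor for the small subunit, was at 49.6, 86.4, 70.1 and 65.3 CPM against 24.5, 16.1, 41.5 and 26.1 CPM (1.33 ± 0.26), and the nucleolar protein gene Npm1 rose by 0.65 ± 0.15.

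Of 47 proteasome genes 24 were higher and 1 lower, at a median of 0.40, and 13 to 15 rose without wild-type library 1, 3 or 4. Psmb7, a catalytic subunit of the core particle, was at 179, 158, 141 and 173 CPM against 84.1, 74.3, 82.3 and 93.3 CPM (0.96 ± 0.13, edgeR adjusted p = 0.000142), and Psma3 rose by 0.87 ± 0.17. Psmd5, a chaperone that assembles the regulatory particle and leaves it, was the 1 that fell (-0.52 ± 0.12).

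The mitochondrial ribosome and the respiratory chain followed the same pattern. Of 78 mitochondrial ribosomal protein genes 24 rose and 4 fell (median 0.30). Of 76 nuclear genes of the respiratory chain and ATP synthase 31 were higher and 4 lower (median 0.37). Over all genes 13.1% were higher and 16.7% lower. On log2(TPM + 1) the counts were 18 and 7 for the former and 22 and 12 for the latter. The falls of the mitochondrial ribosomal list numbered 2 without mutant library 1 or 2 or wild-type library 2 or 4, and 1 without mutant library 4. Mrpl1 was at 73.6, 83.2, 72.3 and 88.4 CPM against 35, 44.2, 32.4 and 42 CPM (1.05 ± 0.16, edgeR adjusted p = 0.000364), and Mrps31 rose by 0.91 ± 0.14. Uqcrq, a subunit of complex III, was at 257, 190, 205 and 218 CPM against 86.4, 115, 77.3 and 94.5 CPM (1.22 ± 0.17), and Atp5l, of ATP synthase, at 180, 162, 168 and 169 CPM against 84, 94.4, 79.4 and 96.9 CPM (0.94 ± 0.12). These 4 genes were apart in all libraries. The 4 respiratory genes that fell were Sdha (-0.64 ± 0.15) and Sdhc (-0.40 ± 0.13) of complex II, Uqcrc1 (-0.81 ± 0.21) of complex III and Ndufc1 (-0.82 ± 0.26) of complex I. The calls of Sdhc and Ndufc1 were lost without wild-type library 2 (edgeR adjusted p = 0.0795 and 0.0584) or 4 (0.0923 and 0.0645) or mutant library 4 (0.111 and 0.0844), Sdhc also without mutant library 3 (0.0803), and Ndufc1 also without mutant library 1 (0.072) or 2 (0.0545).

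Genes of central carbon metabolism went both ways, with 9 of 46 higher and 10 lower and a median of -0.05. In total 41.3% changed, against 29.9% of all genes. Gapdh was at 3180, 2600, 3870 and 3000 CPM against 1640, 1760, 1660 and 1770 CPM, a rise of 0.89 ± 0.14 (edgeR adjusted p = 0.000569). Ldhb, the lactate dehydrogenase subunit that favours pyruvate, was at 5.82, 4.19, 7.14 and 4.87 CPM against 152, 300, 133 and 165 CPM, a fall of 5.09 ± 0.45 (edgeR adjusted p = 1.05e-05). Its highest mutant value was far below its lowest wild-type value. Suclg2, a subunit of succinyl-CoA ligase, was at 10, 12.7, 42 and 11.3 CPM against 143, 169, 158 and 160 CPM (-3.05 ± 0.50, and -3.79 without mutant library 3), and Hk1 and Pfkl fell by 0.98 ± 0.19 and 0.73 ± 0.18. Of 33 genes of cholesterol synthesis and sterol handling 7 fell and 1 rose, with a median of -0.36. That is 24.2% changed, where 29.9% of all genes changed and 16.7% fell. The falls numbered 10 without mutant library 3 or wild-type library 2 and 13 without both. Sqle, squalene epoxidase, was at 22.4, 21.4, 37.8 and 14.5 CPM against 95, 64.2, 87.8 and 73.6 CPM (-1.74 ± 0.38, edgeR adjusted p = 0.00406). The sterol sensor Insig1 fell by 1.1 ± 0.16. The member that rose was Ebp (0.58 ± 0.16), a sterol isomerase, with an adjusted p over 0.05 without wild-type library 1 (0.0555) or mutant library 3 (0.0557).

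Hox and imprinted genes were lower where they were measured and called. Of 28 Hox genes listed 16 passed the filter on low counts, and 7 of them fell and none rose (median -1.18). Hoxb5, a marker of long-term stem cells, was at 1.12, 0.725, 0.517 and 0.869 CPM against 4.88, 8.37, 5.19 and 5.03 CPM (-2.85 ± 0.37, edgeR adjusted p = 0.000137). Hoxa3 was at 0.362 to 1.04 CPM against 3.16 to 6.92 CPM. Hoxa2 and Hoxb6 were close to the limit of detection in the mutants, lower by count ratios of 94 (95% counting interval 31.9 to 458) and 158 (28 to 6270). Of 41 imprinted genes listed 24 were measured, and 13 of those fell and none rose (median -1.49). Zrsr1, a splicing factor gene, rose without wild-type library 2 (0.81, edgeR adjusted p = 0.0494). The maternally expressed noncoding gene Meg3 had 0 counts in all mutant libraries against 2.22, 2.7, 1.49 and 1.6 CPM, at least 111-fold lower. Grb10, an adaptor that restrains growth factor signalling, was at 4.92, 5.82, 6.52 and 3.8 CPM against 38.8, 21.8, 69.6 and 54.2 CPM (-3.13 ± 0.33). Phlda2 and Snrpn were at no more than 0.211 CPM in any mutant library, and Peg13 fell by 2.20 ± 0.29.

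Genes that encode partners of YY1 went both ways, with 7 of 48 members of Polycomb, INO80 and related complexes higher and 11 lower (median -0.11), where 13.1% of all genes were higher and 16.7% lower. Rnf2, the ubiquitin ligase of Polycomb complex 1, was at 30.8, 47.3, 42.5 and 38 CPM against 112, 116, 101 and 114 CPM (-1.48 ± 0.15, edgeR adjusted p = 2.66e-05). Bmi1, which stem cells need for self-renewal, fell by 0.78 ± 0.18, and Scmh1 and Phf19 fell by 1.83 ± 0.31 and 2.65 ± 0.45. The methyltransferase genes of Polycomb complex 2 moved apart: Ezh2 was at 170, 181, 163 and 164 CPM against 90.5, 87.2, 129 and 120 CPM, a rise of 0.67 ± 0.13 that did not pass on log2(TPM + 1) with limma (adjusted p = 0.0642), and Ezh1 fell by 0.54 ± 0.15. Ino80b, a subunit of the INO80 remodeller, rose by 0.91 ± 0.15. On either TPM scale 3 members of the list were higher. Among genes of DNA methylation, TET enzymes and chromatin regulators of myeloid disease 3 of 35 were higher and 3 lower. That is 17.1% changed against 29.9% of all genes, and 1 was higher without wild-type library 2 or 4. Kdm5b, a demethylase of histone H3 lysine 4, was at 11.5, 17.8, 23.7 and 11.3 CPM against 149, 73.8, 144 and 133 CPM (-2.96 ± 0.38), Tet1 fell by 1.56 ± 0.42, and Dnmt3a was higher by 0.48 ± 0.15, a call lost without mutant library 1 (edgeR adjusted p = 0.0753) or 2 (0.14) or wild-type library 2 (0.0687) or 4 (0.0852).

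Most genes of the erythroid and megakaryocytic lineages were lower, while the globin genes were not called and varied widely. Of 33 measured erythroid genes 20 fell and none rose in the edgeR test, with a median of -2.11. Without mutant library 3, 23 fell, and without both that library and wild-type library 2, 24. The summed level of the list was 635 to 1270 CPM in the mutants and 2890 to 4180 CPM in wild type. Car2, a carbonic anhydrase of the lineage, was at 273, 238, 235 and 118 CPM against 1540, 1760, 1170 and 1450 CPM (-2.78 ± 0.39, edgeR adjusted p = 0.000225). Gata1, the regulator of the erythroid programme, was at 5.78, 7.88, 21.7 and 2.36 CPM against 65.3, 36.5, 48.7 and 48.8 CPM (-2.41 ± 0.64, and -3.21 without mutant library 3). Klf1, its partner, was at 2.23, 0.468, 24.6 and 0.993 CPM against 87.9, 51.5, 50.6 and 53 CPM, and Car1 at 4.67, 0.257, 128 and 0 CPM against 718, 249, 338 and 424 CPM. Mutant library 3 was the highest mutant for Gata1, Klf1 and Car1, and neither Klf1 (edgeR adjusted p = 0.0618) nor Car1 (0.124) passed with it, while both did without it, at -5.60 (0.00985) and -7.99 (0.0146). Nfe2, which acts in red cells and platelets, fell by 1.11 ± 0.13.

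The other 13 erythroid genes did not pass, and 6 of them had a positive difference. They include genes of haemoglobin and of the mature red cell. Hba-a1, an alpha globin gene, was at 74.7, 1.52, 27 and 0.0993 CPM in the mutants and at 20.9, 4.78, 3.98 and 4.35 CPM in wild type (log2 difference 1.60 ± 1.35, edgeR adjusted p = 0.4, and -0.31 on log2(TPM + 1)). Alas2, the erythroid enzyme of the first step of haem synthesis, was at 3.86, 0, 0.828 and 0.0497 CPM against 0.564 CPM in wild-type library 1 and 0 in the other 3 (3.06 ± 1.55, edgeR adjusted p = 0.147). Slc4a1, the band 3 anion exchanger, was at no more than 1.78 CPM in any library (0.90 ± 1.85, and -1.80 without mutant library 3). The mutant libraries overlapped wild type in these genes, and mutant libraries 1 and 3 were the highest of their group. Hba-a1 has a near-identical copy, Hba-a2, so the share of each is uncertain. Tfrc, the transferrin receptor, had a difference of 0.63 that did not pass with all libraries and was the 1 rise of the list without wild-type library 1 (0.97, edgeR adjusted p = 0.0229). Haem enzymes that other cells use as well were among the genes that fell, namely Urod (-0.94 ± 0.14) and Fech (-0.63 ± 0.16), both apart, and Cpox (-1.06 ± 0.36), a call lost without wild-type library 1, 3 or 4 or mutant library 1, 2 or 4 (edgeR adjusted p from 0.0599 to 0.12). Alas2, Slc4a1, Tfrc, Fech and Cpox were picked after their values were seen, and the earlier quasi-likelihood method of edgeR called 11 falls in the list.

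Of 29 megakaryocyte and platelet genes 17 fell and none rose (median -1.59), and between 16 and 19 fell when a library was left out. Mmrn1, a platelet granule protein that stem cells also carry, was at 4.98, 4.56, 1.11 and 0.0745 CPM against 144, 186, 160 and 145 CPM (-5.86 ± 0.58, edgeR adjusted p = 2.54e-05). Vwf, von Willebrand factor, was at 2.43, 6.85, 2.85 and 4.59 CPM against 25.5, 21.2, 21.9 and 20.3 CPM. Trpc6, a calcium channel, fell by 4.97 ± 0.46, and Treml1, a receptor of platelet granules, by 4.74 ± 0.70 (-6.45 without mutant library 3). Itga2b, the platelet integrin, overlapped at 68 to 173 CPM against 113 to 133 CPM (log2 difference -0.01 ± 0.26). Mmrn1, Vwf and Trpc6 stand in the stem cell list as well.

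Genes of mast cells and basophils went both ways, with 5 of 21 higher and 8 lower, or 61.9% changed against 29.9% of all genes. Their summed level was 484 to 726 CPM in the mutants against 1330 to 1580 CPM in wild type. The rises numbered 3 without mutant library 2 or 3 or wild-type library 3 or 4, and the falls 5 without mutant library 1, 2 or 4. A pair of mast cell proteases rose from near 0: Cma1 was at 20.7, 10.3, 10.6 and 11.8 CPM against 0, 0, 0.215 and 0.406 CPM (6.59 ± 0.78, edgeR adjusted p = 2.71e-05), and Tpsb2 at 10, 5.24, 4.58 and 2.71 CPM, a count ratio of 399 (95% counting interval 136 to 1940). Cpa3, the carboxypeptidase of mast cell granules, was at 64.2, 33.7, 45 and 31.8 CPM against 27.6, 26.5, 14.6 and 24.8 CPM, which were apart but did not pass (0.90 ± 0.33, edgeR adjusted p = 0.0576). Mcpt4, a chymase picked here after its values were seen, was at 0.0248 to 0.398 CPM against 0 to 0.0939 CPM and did not pass (3.37 ± 2.0, edgeR adjusted p = 0.222). The basophil protease Prss34 was at 5.25, 0.749, 0 and 0 CPM against 84.3, 145, 9.02 and 34.2 CPM (-5.44 ± 1.0, and -8.01 without mutant library 1), and Slc18a2, which loads histamine and monoamines into vesicles, fell by 3.35 ± 0.32. Genes of eosinophils were at 30.5 to 46.6 CPM in sum in the mutants and at 599, 2020, 156 and 112 CPM in wild-type libraries 1 to 4. Of 13 measured, 6 fell and none rose. Epx, eosinophil peroxidase, was at 0.75 CPM in mutant library 1 and had 0 counts in the other 3, against 146, 589, 48.3 and 19.5 CPM. Prg2, major basic protein, was at 16.3, 18.6, 20.8 and 28.9 CPM against 374, 1270, 87.7 and 64.1 CPM (-4.41 ± 0.89, and -3.06 without wild-type library 2). Ear1 and Ear6, ribonucleases of the granules, had 0 counts in the mutants, at least 619-fold and 656-fold lower. The wild-type libraries varied widely in all of these genes, and wild-type library 2 was the highest.

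**Figure D4:**
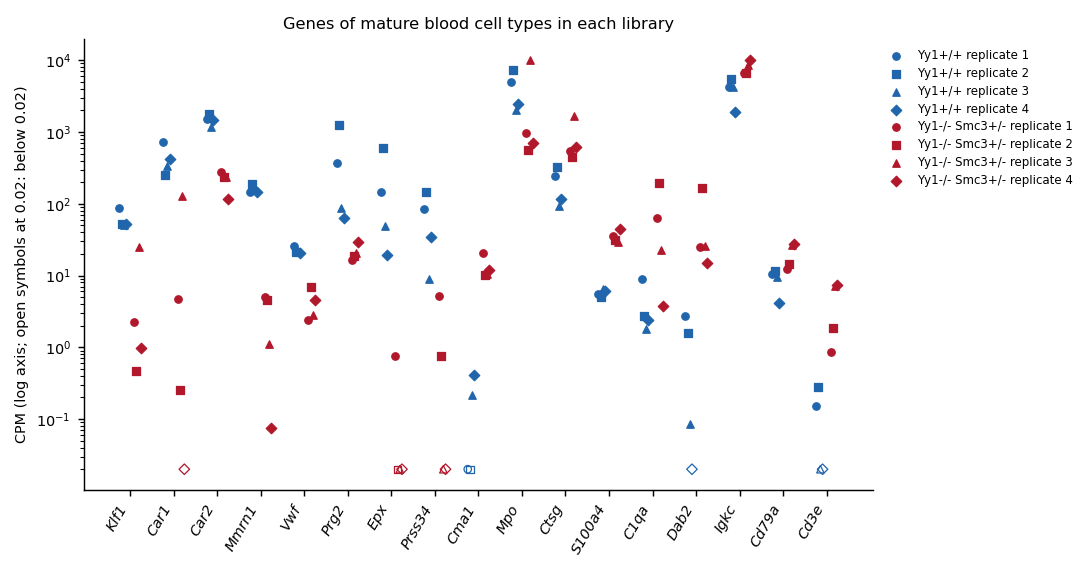
Level of genes that mark blood and marrow cell types in each library, on a log axis in CPM, with open symbols for values below 0.02 CPM. Mutant library 3 stands above the other mutants for Klf1, Car1 and Mpo, mutant library 2 for C1qa and Dab2, and wild-type library 2 is the highest for Epx and Prg2.

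Myeloid genes were higher in part, and single libraries carried much of it. In the list of 41 granule and neutrophil genes 11 were higher and 2 lower (median 0.72), or 31.7% changed against 29.9% of all genes. Without mutant library 3, 7 rose and 7 fell and the median was 0.02. The summed level of the list was 22900 CPM in that library, 5100 to 5560 CPM in the other mutants and 5040 to 14800 CPM in wild type. Mpo, the peroxidase of early granules, was at 981, 565, 10100 and 696 CPM against 4960, 7240, 2020 and 2440 CPM. It did not pass with all libraries (log2 difference -0.44 ± 0.84, edgeR adjusted p = 0.73) and fell without mutant library 3 (-2.48, 0.00934). Ctsg, cathepsin G, was at 542, 448, 1650 and 624 CPM against 246, 327, 91.6 and 116 CPM, a rise of 2.06 ± 0.45 that was 1.47 without that library. Stfa1, a stefin that inhibits cathepsins in late neutrophils, was at 17.6, 13.3, 15 and 14.9 CPM against 0.695, 0.0947, 0.108 and 0 CPM (6.02 ± 1.07, edgeR adjusted p = 0.000882), and its neighbour BC100530 at 11.5 to 30.9 CPM against 0 to 0.376 CPM. Other stefin genes were also among the rises of the list. Stefin genes are near-identical copies, so the share of each is uncertain and their calls are not independent. Padi4, the enzyme that citrullinates histones in neutrophils, fell by 3.66 ± 0.47.

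Among 44 measured genes of monocytes, macrophages and dendritic cells 16 were higher and 1 lower (median 1.22). The count of rises was 7 to 9 without mutant library 2 or wild-type library 2, 3 or 4, and 5 without both mutant library 3 and wild-type library 2. S100a4, a calcium-binding protein of myeloid cells, was at 35.3, 31.2, 29.4 and 44.5 CPM against 5.5, 5.07, 6.4 and 6.18 CPM, a rise of 2.60 ± 0.22 (edgeR adjusted p = 7.85e-06). Ms4a6c was at 97.9, 108, 130 and 125 CPM against 37.6, 25.3, 26.4 and 34.1 CPM. These were alike across the mutants, while the genes of resident macrophages were not. C1qa, a complement component made by macrophages, was at 62.6, 192, 22.7 and 3.75 CPM against 8.81, 2.7, 1.77 and 2.39 CPM. The groups overlapped, and its call (4.15 ± 1.42, edgeR adjusted p = 0.0421) was lost without any of the 4 wild-type libraries and without mutant library 1 or 2 (2.87 and 0.141 without the latter). The same holds for C1qc. Dab2, an endocytic adaptor, was at 25.2, 164, 25.7 and 15 CPM against 2.72, 1.56, 0.0861 and 0 CPM (5.63 ± 1.47, and 4.20 without mutant library 2), and Stab1, a scavenger receptor of sinusoids and macrophages, at 9.06, 69.3, 6.57 and 2.14 CPM against 0 to 1.18 CPM, lost without mutant library 2 (2.87, edgeR adjusted p = 0.154). Stab1 was also lost without any of the wild-type libraries. The part of macrophage RNA in these rises was not tested. The 1 gene that fell was Zbtb46, a factor of dendritic cells, which overlapped between the groups and was lost without wild-type library 1 (edgeR adjusted p = 0.105), among others.

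Lymphoid genes were higher in part, with Cd3e and Trac at low levels and Igkc at a high one. Of 34 T cell, NK cell and innate lymphoid genes 14 were higher and 3 lower (median 1.24), and of 29 B lineage and plasma cell genes 7 rose and 1 fell (median 0.72), where 13.1% of all genes were higher. Without both mutant library 3 and wild-type library 2, 8 of the T, NK and innate lymphoid genes rose. Cd3e, a chain of the T cell receptor complex, was at 0.86, 1.85, 7.22 and 7.43 CPM against 0.15, 0.284, 0 and 0 CPM (5.07 ± 1.08, edgeR adjusted p = 0.0023), and Trac, the receptor's constant region, at 0.472 to 4.16 CPM against 0 to 0.0474 CPM (5.60 ± 1.24, and 4.49 without mutant library 3). Id2, a brake on E proteins in innate lymphoid cells, was at 52, 33.4, 87.5 and 61.3 CPM against 28.9, 23.7, 12.6 and 14.7 CPM. Mutant libraries 3 and 4 were the highest for Cd3e, and the summed level of the T, NK and innate lymphoid list overlapped, at 231 to 534 CPM against 258 to 530 CPM. The 3 that fell were Rora (-1.85 ± 0.35), Lat (-1.02 ± 0.25) and Gata3 (-0.63 ± 0.20), and Gata3 was lost without wild-type library 2 (edgeR adjusted p = 0.0799) or 4 (0.0705), or mutant library 1 (0.0641), 3 (0.0764) or 4 (0.0771).

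The B lineage list summed to 10200 to 16400 CPM in the mutants and 3750 to 12000 CPM in wild type. Pou2af1, a coactivator for immunoglobulin genes, was at 19.9, 31.2, 46.1 and 52.8 CPM against 9.84, 7.91, 17.1 and 2.91 CPM (1.99 ± 0.45, edgeR adjusted p = 0.00507). Ebf1, the B lineage factor, was at 1.17, 1.85, 2.46 and 3.5 CPM against 0.111 to 0.586 CPM, a rise of 2.76 ± 0.69 that did not pass without both mutant library 3 and wild-type library 2 (0.0554). The immunoglobulin light chain gene Igkc was at 6630, 6710, 8660 and 10100 CPM against 4220, 5550, 4180 and 1890 CPM (1.02 ± 0.32). Its call was lost without wild-type library 1, 3 or 4 or mutant library 3 or 4 (edgeR adjusted p from 0.0538 to 0.0812), and Cd79a, a chain of the B cell receptor, was lost without wild-type library 3 or 4 or mutant library 3 or 4. Jchain, which joins secreted immunoglobulin, was at 2260 to 3830 CPM against 738 to 3050 CPM and did not pass (edgeR adjusted p = 0.255). Lineage-negative cells should hold few plasma cells, and these genes were at a high level in libraries of both genotypes, so the part of plasma cell RNA in the B lineage counts was not tested. The count of rises in this list was 3 without mutant library 3 or 4 or wild-type library 4, and 4 without wild-type library 3. The 1 gene that fell was Sdc1 (-0.82 ± 0.27), which encodes the plasma cell protein CD138 and was lost without wild-type library 1 (edgeR adjusted p = 0.0783) or 2 (0.0904) or mutant library 1, 2 or 3 (0.0659 to 0.084). Without mutant library 4, 3 fell, the others being Dntt and Rag2, which acts with Rag1 in V(D)J recombination (-1.93, edgeR adjusted p = 0.0367).

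Of 23 endothelial and stromal genes measured 5 rose and 7 fell, or 52.2% changed against 29.9% of all genes. Eng, endoglin, was at 25.1, 27.1, 11.5 and 16.4 CPM against 141, 76.9, 128 and 130 CPM (-2.57 ± 0.33, edgeR adjusted p = 0.000142), and the receptor gene Tie1 fell by 2.11 ± 0.31. Stem cells express both. The rises, of which Stab1 was 1, numbered 3 without mutant library 2 or wild-type library 1, 2 or 4, and 0 without both mutant library 3 and wild-type library 2, where edgeR still called 7 falls.

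Genes of the p53 response were higher for 12 of 42 measured members and lower for 5, with a median of 0.18. Over all genes 13.1% were higher and 16.7% lower. The rises included genes that also stand in the mitosis and cytosolic ribosomal protein lists. The falls numbered 3 without mutant library 3 or 4. Phlda3, an inhibitor of AKT, was at 48, 32.8, 29.9 and 41.6 CPM against 7.53, 6.74, 6.33 and 6.31 CPM (2.5 ± 0.25, edgeR adjusted p = 2.57e-05). Bax, which permeabilises mitochondria in apoptosis, was at 170, 122, 151 and 146 CPM against 75.4, 88.2, 55.5 and 68 CPM, and Rps27l rose by 1.16 ± 0.16. All mutant libraries were above all wild-type libraries in these genes. Pmaip1, which encodes NOXA, was at 90.5, 58.3, 40.3 and 65.8 CPM against 9.64, 34.7, 1.83 and 6.54 CPM (2.25 ± 0.60, and 3.40 without wild-type library 2). Cdkn1a, which encodes p21, was at 121, 69.9, 74.2 and 85.9 CPM against 19.2, 146, 8.08 and 13.6 CPM. It did not pass with all libraries (0.90 ± 0.71, edgeR adjusted p = 0.367) and rose without wild-type library 2 (2.68, 0.00078), the highest library. Of 28 apoptosis genes 5 rose and 2 fell, or 25% changed against 29.9% of all genes. The rises numbered 3 without mutant library 2 or 4 or wild-type library 4, and 1 gene fell without wild-type library 1 or 4 or any of the mutant libraries. Bcl2, which blocks apoptosis, was at 171, 194, 219 and 312 CPM against 85.2, 65.1, 109 and 98.2 CPM (1.33 ± 0.21).

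Of 60 genes of DNA damage response and repair 15 rose and 5 fell (median 0.25), or 33.3% changed against 29.9% of all genes. Without wild-type library 1, 9 rose. Brca2, which acts in homologous recombination, rose by 1.1 ± 0.20. Rad51c, of the same pathway, was at 12.6, 9.8, 10.7 and 11 CPM against 2.42, 2.8, 2.07 and 3.81 CPM (2.0 ± 0.26, edgeR adjusted p = 0.000133). Parp2, a poly(ADP-ribose) polymerase that senses DNA breaks, fell by 0.86 ± 0.20. On log2(TPM + 1) 9 members were higher and 8 lower.

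Immediate early genes, which respond within minutes to growth factors and to handling of tissue, varied widely between libraries of the same genotype. Of 38 measured 8 fell and none rose in the edgeR test (median -1.25), or 21.1% changed against 29.9% of all genes. The count of falls ran from 2 without mutant library 3 or 4 to 15 without wild-type library 3. Fos was at 1800, 592, 146 and 346 CPM in the mutants and at 2350, 3070, 90 and 1280 CPM in wild type, Jun at 1450, 722, 261 and 586 CPM against 1920, 4070, 178 and 1290 CPM, and Dusp1 at 96.9 to 1200 CPM against 71.8 to 2180 CPM. Wild-type library 3 was the lowest and wild-type library 2 the highest of all 8 for each of these genes, and none passed the test. Tsc22d3, a glucocorticoid target in this list, was at 94, 86.9, 60 and 59.6 CPM against 187, 283, 150 and 202 CPM and fell by 1.45 ± 0.25 (edgeR adjusted p = 0.000821). Of 42 heat shock and chaperone genes 8 rose and 12 fell, or 7 without mutant library 4, where 13.1% of all genes were higher and 16.7% lower. The summed level was 37000 CPM in wild-type library 2 and 13400 to 17600 CPM in the other 7 libraries. The chaperonin subunit gene Tcp1 was at 593, 584, 590 and 565 CPM against 356, 407, 356 and 372 CPM (0.65 ± 0.12), and Hsf1, the heat shock factor, fell by 0.90 ± 0.17. Hspa1b, an inducible HSP70 gene, was at 237, 35.2, 11.6 and 40.6 CPM against 839, 2770, 85.6 and 1300 CPM, and its call (edgeR adjusted p = 0.0389) was lost without wild-type library 1, 2 or 4 or mutant library 2, 3 or 4.

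Of 62 interferon-stimulated genes 4 were higher and 7 lower, or 17.7% changed, where 29.9% of all genes changed. Ifi27l2a was at 41.9, 64.8, 23 and 55.2 CPM against 7.18, 4.14, 6.5 and 6.13 CPM (2.96 ± 0.66, edgeR adjusted p = 0.00505), and the membrane protein gene Ifitm1 rose by 0.89 ± 0.20. Ifi44 was at 14.8, 12.3, 8.02 and 11.7 CPM against 37.7, 34.1, 41.3 and 54.4 CPM (-1.83 ± 0.29). Without 1 library the counts ran from 2 to 5 higher and from 2 to 7 lower, and with only the 8 libraries in the fit 11 were higher and 11 lower. Autophagy genes were called at 4 higher and 6 lower of 49 (20.4%), with 0 to 2 higher when any library other than wild-type library 2 was left out, and the falls included the core gene Map1lc3b (-1.05 ± 0.24) and the protease gene Atg4b, at 44.3, 45, 45 and 48.6 CPM against 90.8, 77.6, 80.1 and 82.3 CPM (-0.86 ± 0.11). Of 35 antioxidant genes 6 rose and 9 fell (42.9%), the latter with Prdx3 (-1.02 ± 0.19), a mitochondrial peroxiredoxin, and Cat, catalase (-0.71 ± 0.11).

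Promoters of changed genes were searched for the motif of YY1, the factor whose gene these cells were labelled as lacking. The longer form of the motif was taken as AANATGGC followed by GGC, on either strand and with N for any base, in the window from 250 bases before to 50 bases after a start site in the RefSeq table of GRCm38.p6. Of the 16649 genes tested, 11219 matched an entry and 10458 of those were protein coding. The longer motif stood in a promoter of 44 of 1403 genes that rose (3.14%), 59 of 2011 that fell (2.93%) and 177 of 7044 that did not pass (2.51%), or 280 of all 10458 (2.68%). These shares count a gene where any of its promoters holds the motif, at 1.22 to 1.31 promoters per gene, while 0.986% of all 32851 promoters in the table held it, counted per promoter and over genes expressed or not. Genes with the longer motif had a median log2 fold change of -0.09. The shorter form, AANATGGC alone, which every longer match contains, was found for 11.3% of the genes that rose, 10.9% of those that fell and 9.24% of those that did not pass, 9.84% of all tested and 6.05% of all promoters. Among lists with at least 10 promoter matches, the shorter motif was most frequent in those of the mitochondrial ribosome (30.4%), of cohesin (28.6%, 4 of 14), of the respiratory chain (25.4%) and of the cytosolic ribosome (21.3%). It was in 1 of 45 stem cell genes (2.22%) and in none of 45 DNA repair, 46 interferon-stimulated, 37 neutrophil and 32 immediate early genes. A match describes letters in this window and shows no binding.

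The promoters of 4 genes with the longer motif are shown, the 2 with the smallest p among those that rose and the 2 among those that fell, with the motif in capitals and the strand of the gene 5′ to 3′. In each it lies after the start site on the strand of the gene.
Nagpa, chr16:5203963-5204262, minus strand: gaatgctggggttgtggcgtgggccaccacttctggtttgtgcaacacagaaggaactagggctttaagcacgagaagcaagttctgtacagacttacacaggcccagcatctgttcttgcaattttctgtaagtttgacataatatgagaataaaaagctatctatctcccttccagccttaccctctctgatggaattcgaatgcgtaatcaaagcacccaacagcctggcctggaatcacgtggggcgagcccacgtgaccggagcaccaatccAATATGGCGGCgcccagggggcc
Dohh, chr10:81384184-81384483, plus strand: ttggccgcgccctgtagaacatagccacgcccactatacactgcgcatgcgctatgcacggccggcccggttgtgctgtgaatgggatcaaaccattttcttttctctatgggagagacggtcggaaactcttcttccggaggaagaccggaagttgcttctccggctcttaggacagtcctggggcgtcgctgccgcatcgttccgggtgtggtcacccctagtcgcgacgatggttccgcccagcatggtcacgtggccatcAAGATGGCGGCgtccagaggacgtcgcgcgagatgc
Mb21d2, chr16:28929649-28929948, minus strand: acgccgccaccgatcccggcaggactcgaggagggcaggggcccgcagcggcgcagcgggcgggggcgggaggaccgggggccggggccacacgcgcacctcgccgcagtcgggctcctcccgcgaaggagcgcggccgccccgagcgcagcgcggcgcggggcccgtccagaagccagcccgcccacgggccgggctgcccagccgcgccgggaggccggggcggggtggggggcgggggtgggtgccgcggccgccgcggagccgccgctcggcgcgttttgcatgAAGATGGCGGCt
Scml2, chrX:161162500-161162799, plus strand: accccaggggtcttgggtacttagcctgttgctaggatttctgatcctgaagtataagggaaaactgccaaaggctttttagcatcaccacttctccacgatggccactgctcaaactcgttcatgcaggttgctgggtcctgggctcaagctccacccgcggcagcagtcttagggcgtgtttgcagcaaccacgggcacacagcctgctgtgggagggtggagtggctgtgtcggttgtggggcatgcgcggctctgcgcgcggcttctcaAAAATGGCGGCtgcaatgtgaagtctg
The first base of the motif lies at position 28, 15, 39 and 24 after the start site, in that order. Nagpa, which uncovers the mannose 6-phosphate tag of lysosomal enzymes, was at 136, 109, 143 and 120 CPM in the mutants and at 58.8, 54.6, 53.4 and 46.1 CPM in wild type (1.26 ± 0.13, edgeR adjusted p = 2.7e-05). Dohh, an enzyme of hypusine synthesis on translation factor eIF5A, was at 230, 172, 179 and 175 CPM against 79.6, 91.1, 75.5 and 76.8 CPM (1.23 ± 0.14). Mb21d2 was found in mutant library 2 alone, at 0.281 CPM, against 3.89, 2.83, 3.62 and 6.04 CPM, and Scml2 in none, as given above. The motif lies downstream of the start site in the same orientation in genes that moved in opposite directions, with no overlap between the genotypes in any of the 4.

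The comparison was set beside that of the 4 libraries labelled Yy1-/- with the same 4 wild-type libraries. The controls are shared, so the values are given side by side and no overlap is drawn from them. Yy1-/- against wild type gave 5854 changed genes (35.2%), 2722 higher and 3132 lower. The stem cell list had 51 lower and 1 higher there against 57 and 1 here, the mitosis list 51 higher against 54, and the imprinted list 13 lower in both. The cytosolic ribosomal protein list had 72 higher (median 0.72) against 43 (0.44), the monocyte, macrophage and dendritic cell list 27 (median 2.47) against 16 (1.22), the interferon list 20 against 4, and the B lineage list 2 against 7. The erythroid list had 13 lower (median -1.43) against 20 (-2.11). Whether these counts differ was tested only through the direct contrast of both mutants, gene by gene.

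That contrast, of Yy1-/- Smc3+/- with Yy1-/-, gave 6 genes of 16649 (0.036%), all 6 higher in Yy1-/- Smc3+/- and 0 lower in edgeR, while 1076 genes had an unadjusted p under 0.05. DESeq2 gave 34 higher and 19 lower. No member of the 40 gene lists was called in edgeR. The sex-linked list had a median log2 difference of 3.49 between the mutants and of -3.06 in Yy1-/- against wild type, with no member called in either. The part of sex in this contrast was not tested. Smc3 itself had a log2 difference of 0.24 ± 0.15 between the mutants (95% interval -0.09 to 0.56, edgeR adjusted p = 0.819), at 200, 274, 306 and 243 CPM in Yy1-/- libraries 1 to 4. Yy1 was at 0.407, 0.996, 5.01 and 12.2 CPM in the Yy1-/- libraries, and the difference of Yy1-/- Smc3+/- from them did not pass (-1.44 ± 0.81, edgeR adjusted p = 0.788). The 6 genes are named because they are all there were.

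Of the 6 genes 5 are processed pseudogenes, copies of mature mRNAs that returned to the genome. Gm8730 (chromosome 8:102864845-102865798, GRCm38) was at 409, 324, 334 and 367 CPM in Yy1-/- Smc3+/-, at 9.24, 13.8, 5.9 and 8.25 CPM in wild type and at 14.7, 8.99, 14.4 and 11.1 CPM in Yy1-/-. Gm9625 (chromosome 13:67810246-67811200) was at 87.3, 70.2, 72.6 and 84.2 CPM, against 0.668 to 2.08 CPM in wild type and 1.06 to 1.83 CPM in Yy1-/-. Gm6472 (chromosome X:152909505-152910155) was at 128 to 155 CPM against 10.7 to 20.8 and 14.7 to 26.6 CPM. Wild type and Yy1-/- overlapped in all 3, and Yy1-/- Smc3+/- stood far above, by 4.87 ± 0.25, 5.74 ± 0.27 and 2.69 ± 0.23 over Yy1-/-. Gm14165 (chromosome 2:152353615-152354566) and Gm6278 (chromosome 16:85644252-85645023) were low in every library, at 3.16 to 5.23 CPM and 1.89 to 2.88 CPM in Yy1-/- Smc3+/- and at no more than 0.244 CPM elsewhere. Reads of pseudogenes can be exchanged with those of their parent genes and of other copies, so the source of these reads is uncertain, and the last 2 were not called by edgeR's earlier quasi-likelihood method (adjusted p = 0.0954 and 0.121).

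The sixth gene was Rab35, which encodes a small GTPase of endosomal recycling (chromosome 5:115631908-115647736). It was at 67.8, 55.3, 40.8 and 41.1 CPM in Yy1-/- Smc3+/-, at 15.1, 15.2, 14.3 and 22.1 CPM in wild type, and at 14, 18.9, 12.1 and 19.8 CPM in Yy1-/-. The 4 Yy1-/- Smc3+/- libraries were above all 8 others, by 1.62 ± 0.23 over wild type (edgeR adjusted p = 0.000244) and 1.66 ± 0.23 over Yy1-/- (0.0178). The latter call was lost without Yy1-/- Smc3+/- library 1 (0.0786) or 2 (0.0965), or Yy1-/- library 1 (0.0991), 2 (0.0578) or 3 (0.0843).

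**Figure D5:**
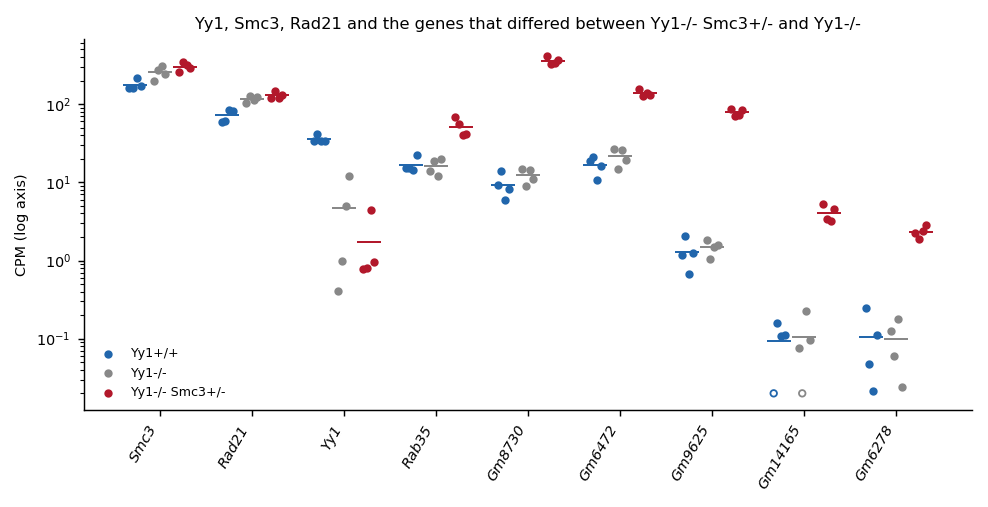
Level of 9 genes in each library of the 3 genotypes, on a log axis in CPM, with open symbols for values below 0.02 CPM. Rab35 and the 5 pseudogenes stand apart in Yy1-/- Smc3+/- only, at 324 to 409 CPM for Gm8730 against at most 14.7 CPM in the other 8 libraries, while Smc3 and Rad21 lie at similar levels in both mutants.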

How the data were processed

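RNA of sorted LSK cells was sequenced in 12 libraries, 4 per genotype. The authors aligned reads with STAR 2.5.2b and estimated expected counts and TPM per gene with RSEM 1.3.0 on mm10, per the submitters' processing notes and the deposited file headers. These files also hold the effective length of each gene as deposited. The labels name a kit that does not mark strand, so reads of overlapping and antisense genes, and of near-identical copies, cannot be told apart.

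Expected counts were rounded. Genes were kept with edgeR's filterByExpr (minimum count 10, minimum total 15), and the libraries were scaled by TMM. All 12 libraries entered 1 quasi-likelihood fit in edgeR 4.0.16 (R 4.3.3), with Benjamini-Hochberg adjusted p under 0.05 as the threshold. limma 3.58.1 was used on log2(TPM + 1) and log2(TPM + 0.1), and DESeq2 1.42.0 on the counts, as alternatives, and the code was tested on simulated data. Groups came from the genotype labels, and replicates were numbered in accession order. A limit of detection is 3 counts over a group (0.018 CPM in Yy1-/- Smc3+/-, 0.0145 CPM in Yy1+/+). Such limits and counting intervals cover counting error only. Annotation was GENCODE M21 on GRCm38, where 93 of 55487 gene IDs found no match and 300 matched another version.

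The comparison and the 40 gene lists were chosen with earlier results of these data known. Named genes follow a rule: Yy1 and Smc3; the 15 largest rises and falls with a mean of at least 5 CPM and no overlap; up to 4 members per list with the smallest p, the first 5 members, members against the majority where 5 or fewer, and the 3 of highest mean in cell type and immediate early lists; the 8 with the smallest p against Yy1-/-; and the 10 most variable in Yy1-/- Smc3+/- with a mean of at least 20 CPM. Fewer are printed than the rule names, and some list members were added after their values were seen. Some genes are not reported here.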

Additional observations from a re-analysis of the deposited data

Results flagged for a closer look

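In 423 groups of 4 libraries, made up of the genes named and the 2 genotypes compared, a value set apart from the other 3 by Dixon's criterion at 95%, which divides the gap to the nearest library by the range, was found 49 times, or 11.6%. Chance sets apart about 5 in 100 groups chosen without regard to their spread, while some of these genes were named for their spread or after their values were seen, so the share is a description and not a test. Yy1-/- Smc3+/- library 3 gave 12 of these, wild-type library 1 gave 10, wild-type library 2 gave 8 and wild-type library 3 gave 0. All values are in CPM.

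Yy1-/- Smc3+/- library 3 held 4.45 of Yy1, where the other 3 held 0.772 to 0.944. It was the highest of its group for Mpo at 10100 (others 565 to 981), Ctsg at 1650 (448 to 624), Nkg7 at 211 (32.6 to 39.6), Car1 at 128 (0 to 4.67), Klf1 at 24.6 (0.468 to 2.23), Suclg2 at 42.0 (10 to 12.7), Cdk1 at 324 (260 to 270), Cpox at 73.2 (30.5 to 34.4), Slc4a1 at 1.78 and Trac at 4.16. Its Mycn was the lowest at 28.7 (47.2 to 49.8).

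Wild-type library 2 was the highest of its group for Cdkn1a at 146 (others 8.08 to 19.2), Map1lc3b at 789 (334 to 381), Uqcrc1 at 871 (502 to 525), Pfkl at 494 (321 to 334), Jam3 at 24.6, Hoxb5 at 8.37 and Yy1 at 41.3. Its Hlf was the lowest at 112 (224 to 233). Wild-type library 1 was set apart by Klf1 at 87.9 (50.6 to 53), Csf1r at 49.3 (22.3 to 26.6), Hba-a1 at 20.9 (3.98 to 4.78), C1qa at 8.81, Slc4a1 at 0.958, Stfa1 at 0.695, Alas2 at 0.564, Mcpt4 at 0.0939, Ednrb at 0.0188 and a low Igfbp7 at 0.451. Wild-type library 4 was set apart by Rab35 at 22.1.

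Yy1-/- Smc3+/- library 1 was set apart by Hspa1b at 237 (others 11.6 to 40.6), Dohh at 230, Cma1 at 20.7, Prss34 at 5.25 and Epx at 0.75, and by low Smc2 at 146 (218 to 225) and Bmi1 at 28.7 (42.2 to 43.2). Yy1-/- Smc3+/- library 2 was set apart by Dab2 at 164 (15 to 25.7), Stab1 at 69.3 (2.14 to 9.06), Angpt1 at 141 (65 to 76.3), Mb21d2 at 0.281 and Snrpn at 0.211. Yy1-/- Smc3+/- library 4 was set apart by Rag2 at 4.12 (0.647 to 0.912), Sdc1 at 55.5 (39 to 40.6), Atg4b at 48.6, Jam2 at 0.621, Hoxb6 at 0.0248 and a low Cdc25c at 48.3 (54.1 to 55).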

How the results depend on the processing

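Of 215 genes printed, 185 were called. Of these, 157 kept their call in each of the 19 alternatives that tested them, 28 lost it in at least 1 and 0 changed direction. An alternative that filtered a gene out was not counted for that gene, and the stricter filter tested 3870 of the 4975 genes called against wild type. Of the 4975 genes called against wild type, 4598 were also called by DESeq2, 3949 on log2(TPM + 1) and 3643 without both Yy1-/- Smc3+/- library 3 and wild-type library 2, and none was called in the opposite direction in any alternative. Leaving out each library in turn gave 3835 (without Yy1-/- Smc3+/- library 4) to 4837 changed genes, 1558 to 2115 higher and 2204 to 2722 lower. The higher genes numbered 1299 on log2(TPM + 1) and 1338 on log2(TPM + 0.1), and with a fold of at least 2 there were 2900 changed, 1021 of them higher. The cause of these shifts was not tested. Against Yy1-/-, DESeq2 called 53 genes (34 higher, 19 lower), edgeR's earlier quasi-likelihood method called 1 lower, and leaving out a library gave 5 to 7 changed, 5 to 7 higher and 0 lower. That earlier method, the fit without both libraries and the Y-linked covariate were chosen after seeing the data. Among genes with no call, Stag2 turned from 0.06 to -0.08 on both TPM scales, to -0.10 without both libraries, and ranged from -0.10 to 0.26 when a library was left out, Rplp0 turned from 0.07 to -0.12 on both TPM scales, and Hba-a1 from 1.6 to -0.31 on log2(TPM + 1) and -0.73 on log2(TPM + 0.1). Without both libraries Runx1 was at -0.14 and Slc4a1 at -2.34. When a library was left out, Runx1 ranged from -0.02 to 0.16, Slc4a1 from -1.8 to 5.68, Itga2b from -0.22 to 0.19 and Cd34 from -0.06 to 0.03, and with upper quartile scaling Itga2b was at 0.0 and Cd34 at 0.01. In the gene lists, the stricter filter of 1 CPM in 8 libraries tested fewer genes and left 2 falls of Hox genes, 1 of eosinophil genes and 13 of erythroid genes. Both TPM scales gave 5 rises in central carbon metabolism, 3 in the B lineage, 2 in mast cells and basophils and 3 in apoptosis, and 6 or 7 in monocytes, macrophages and dendritic cells. With the Y-linked covariate 17 cytosolic ribosomal protein genes rose, and 7 genes of the TGF-beta, Notch and Wnt list and 5 heat shock genes fell. Leaving out libraries was not run for Yy1-/- against wild type. No paired analysis was possible because replicate numbers only follow accession order.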

Other observations

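Genes of the X chromosome were lower more often than genes elsewhere. Of 514 X-linked genes tested 8.75% were higher and 26.3% lower, with a median log2 fold change of -0.15, where all genes had 13.1%, 16.7% and 0.02. Chromosome 13, which carries the large histone cluster, had the highest share of rises, at 17.1% of 683 genes. The difference between chromosomes was not tested.

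Neighbouring protein-coding genes moved in the same direction in several places, given here as runs of adjacent tested protein-coding genes that all passed in edgeR. Tested genes of other kinds that lie between them were left out of account. On chromosome 13, 6 genes between 21754123 and 21810197, all of them histone genes, rose with a median of 1.68, and 6 between 22002173 and 22043676, 5 of them histone genes, rose with a median of 1.95. On chromosome X, Bhlhb9, Gprasp2, Arxes2, Bex2 and Bex4, between 135797594 and 136140443, fell with a median of -3.45. On chromosome 11, 5 genes from Shroom1 to Il4 between 53457205 and 53618669 fell with a median of -3.34, and on chromosome 17, 5 genes from Cyp39a1 to Clic5 between 43667425 and 44280172 fell with a median of -2.51. How often such runs arise without a change in the region was not tested.

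Protein-coding genes that rose were shorter and more abundant in wild type than those that fell. The 1839 that rose had a median effective length of 1770 bases and a median of 27.4 TPM in wild type, the 2595 that fell 2540 bases and 15.2 TPM, and the 8965 that did not pass 2530 bases and 15.1 TPM. Of 718 genes annotated only as regions to be experimentally tested (TEC) 76 rose and 10 fell, or 12.0% changed against 29.9% of all genes. Of 580 processed pseudogenes 30 rose and 10 fell, or 6.9% changed.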
